A study of Saccharomyces cerevisiae with 12 samples.

Results

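Budding yeast (Saccharomyces cerevisiae) carrying a gcr1 null allele was compared with a second strain, taken to be wild type for GCR1, during growth in 3% raffinose. The comparison rests on the 4 arrays whose titles name the gcr1 null mutant in raffinose, out of 12 arrays in the series; the others are 4 arrays in 3% galactose and 4 in 2% glucose. Each array held total RNA of both strains in 2 dyes, and each value is the log2 ratio between them for 1 of 5636 genes, after averaging the probes of a gene. A positive ratio was read as higher in the labelled mutant. The labels name neither the strain background nor the reference strain, and give no growth phase. Whether the strains differ in other alleles or in conditions is not known here. Separate cultures were each hybridised again with the dyes exchanged, and which arrays belong to the same culture is not labelled. Since some of the 4 arrays share a culture, the p-values measure spread between arrays and can be smaller than those over cultures would be. In RNA from whole cultures, fewer cells of a kind and less RNA per cell cannot be told apart.

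Gcr1 is a DNA-binding activator that works with Gcr2, Rap1 and Tye7 at the promoters of glycolytic genes, and with Rap1 at many ribosomal protein genes. Raffinose is a trisaccharide that yeast uses after the secreted invertase Suc2 releases fructose from it. Cells growing on it receive hexose slowly, so genes repressed by abundant glucose are partly expressed and respiration contributes to growth.

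The deleted gene, GCR1 (YPL075W), had a positive ratio in the labelled mutant. Its log2 ratio was 2.04, 1.90, 1.36 and 1.38 on raffinose arrays 1 to 4, with a mean of 1.67 ± 0.35 (SD, n = 4; limma, adjusted p = 1.94e-06). All 4 values lay above 0. Whether its probes lie inside the deletion is not known here, so this neither checks nor overturns the labels. The direction of every ratio below is therefore not settled by the labels. It was taken from the textbook role of Gcr1 as an activator of glycolysis, and the opposite reading would exchange higher and lower throughout. That the glycolysis genes below read lower follows from this choice and is no result about direction. Their sizes, and which genes share or oppose their sign, do not depend on it. The genes on either side of GCR1 on its chromosome, GPI2 (-0.45 ± 0.42) and YTA6 (0.22 ± 0.45), did not pass the test, although GPI2 was called lower with the replicate number as a block.

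Raffinose arrays 1 and 2 differed from arrays 3 and 4. The median over all genes was 0.285 and 0.234 on arrays 1 and 2, and -0.188 and -0.05 on arrays 3 and 4. Across genes, r was 0.963 between arrays 1 and 2 and 0.952 between arrays 3 and 4, whereas an array of one pair against an array of the other gave 0.255 to 0.482. With the 1536 unnamed probes included, these cross-pair values were -0.507 to -0.34, and over the unnamed probes alone they were -0.851 to -0.834. The median gap between arrays of a pair was 0.132 and 0.147 on the log2 scale, whereas that between the 2 pair means was 0.616. The difference between pairs was shared with the other sugars: across genes it correlated with the same difference in galactose at r = 0.952 and in glucose at r = 0.77. These are descriptions, since the points share arrays and dyes. A gene lay on the same side of 0 on all 4 arrays in 2566 of 5636 cases (45.5%), 1566 above and 1000 below. What sets the array pairs apart was not tested.

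**Figure D1:**
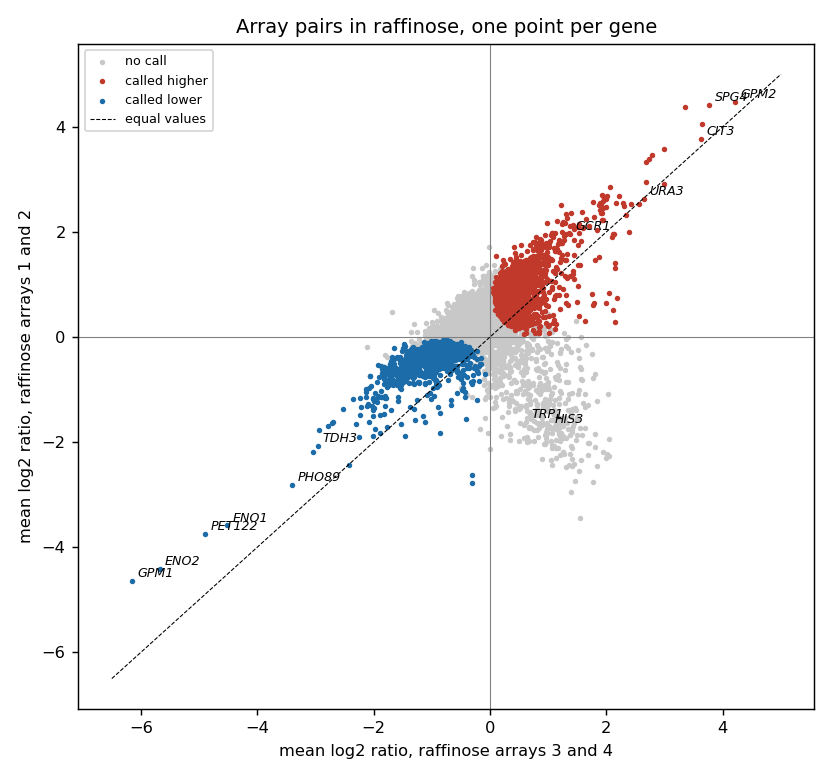
Mean log2 ratio of raffinose arrays 1 and 2 (y axis) against that of arrays 3 and 4 (x axis), labelled gcr1 mutant over wild type, 1 point per gene, with called genes coloured and the dashed line marking equal values. GPM1, ENO2, ENO1 and PET122 lie far below 0 and GPM2, SPG4 and CIT3 far above 0 on both axes, whereas HIS3 and TRP1 lie in a cloud that is below 0 on arrays 1 and 2 and above 0 on arrays 3 and 4.

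Of 5636 genes, limma called 2071 (36.7%), of which 1265 were higher (22.4%) and 806 lower (14.3%) in raffinose, at a Benjamini-Hochberg adjusted p under 0.05, which is meant by rose and fell below. Every list share below is to be read beside 22.4% higher and 14.3% lower. With the replicate number as a block, which removes what same-numbered arrays share across sugars, 3406 were called (60.4%), 1960 higher (34.8%) and 1446 lower (25.7%). Centring every array at its median gave 1436 higher and 1424 lower. Without raffinose array 3 or 4 the lower count was 532 and 509. Of the 2071 called genes 2030 had the same sign on all 4 arrays (22.1% of all genes higher and 13.9% lower). Among these, 726 higher (12.9%) and 486 lower (8.62%) also kept an unadjusted p under 0.05 however the arrays were averaged 2 by 2. By adjusted p, averaging arrays 1 with 2 and 3 with 4 left 124 higher and 60 lower. With the signs of raffinose arrays 3 and 4 turned, as the negative correlation over all probes could require, limma called 0 genes, while 1463 had an unadjusted p under 0.05. What both pairs share cancels in that reading. GPM1 then stood at 0.76, ENO2 at 0.63 and GPM2 at 0.13, and the medians of the 35 gene lists used below ran from -1.07 to 0.48, beside 0.265 over all genes.

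Enzymes of the later steps of glycolysis carried the lowest ratios of the whole comparison. Of 19 glycolysis genes 10 fell (52.6%) and 4 rose (21.1%), beside 14.3% and 22.4% of all genes, and the median was -1.24, beside 0.052 over all genes. Without array 1 or 2, 2 rose. With arrays averaged 1 with 2 and 3 with 4, 7 fell and 1 rose. The phosphoglycerate mutase gene GPM1 (YKL152C) had the lowest ratio of all 5636 genes, at -4.67, -4.60, -6.13 and -6.17 on arrays 1 to 4. Its mean of -5.39 ± 0.88 corresponds to a 42.02-fold lower level in the labelled mutant (limma, adjusted p = 2.26e-06). The enolase gene ENO2 (YHR174W) read -4.44, -4.39, -5.73 and -5.63 (mean -5.05 ± 0.73, adjusted p = 1.94e-06). Its paralog ENO1 (YGR254W) read -3.61, -3.56, -4.61 and -4.41 (mean -4.05 ± 0.54, adjusted p = 2.67e-07). All 3 genes were far below 0 on every array, and lower on arrays 3 and 4 than on arrays 1 and 2.

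The steps above and below these enzymes fell less. TDH3, the main glyceraldehyde-3-phosphate dehydrogenase gene, read -2.12, -2.04, -3.12 and -2.81 on arrays 1 to 4 (mean -2.52 ± 0.53), and its close paralog TDH2 averaged -1.24 ± 0.54. The pyruvate kinase gene CDC19 read -1.85, -1.69, -3.16 and -2.71 (mean -2.35 ± 0.70). Triose phosphate isomerase (TPI1, -2.24 ± 0.64), phosphoglycerate kinase (PGK1, -2.18 ± 0.63), glucose-6-phosphate isomerase (PGI1, -1.504 ± 0.44) and aldolase (FBA1, -1.41 ± 0.78) were also below 0 on all 4 arrays. Their adjusted p-values from limma ran from 3.01e-06 for TDH3 to 0.00841 for FBA1. ENO1 and ENO2, and TDH2 and TDH3, are similar enough that cross-hybridisation between them cannot be told apart from expression.

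Both phosphofructokinase subunit genes stayed near 0 and changed sign between the array pairs. PFK1 read 0.26, 0.23, -0.75 and -0.50 (mean -0.19 ± 0.51, limma, adjusted p = 0.571) and PFK2 0.35, 0.23, -0.67 and -0.42 (mean -0.13 ± 0.49, adjusted p = 0.675). The minor pyruvate kinase gene PYK2 (-0.43 ± 0.49), the hexokinase gene HXK2 (0.46 ± 0.54) and TDH1 (0.85 ± 1.02) did not pass the test either. With the replicate block PFK1 and PYK2 were called lower, and HXK2 and TDH1 higher. TDH1 was also called without array 3.

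The glycolysis genes with positive calls were GPM2, GPM3, GLK1 and HXK1. GPM2 (YDL021W), a homologue of GPM1 without clear mutase activity, had the highest ratio of all 5636 genes. It read 4.36, 4.58, 4.24 and 4.16 on arrays 1 to 4, a spread far smaller than that of GPM1 (mean 4.34 ± 0.18, a 20.21-fold higher level; limma, adjusted p = 1.18e-10). A second homologue, GPM3, averaged 0.41 ± 0.23 (adjusted p = 0.0112) and lost its call without array 1 or 2. The glucokinase gene GLK1 read 1.70, 1.90, 0.55 and 1.01 (mean 1.29 ± 0.62, adjusted p = 0.00126). HXK1, whose hexokinase also phosphorylates fructose, averaged 0.73 ± 0.44 (adjusted p = 0.0177) and lost its call without array 1 or 2.

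**Figure D2:**
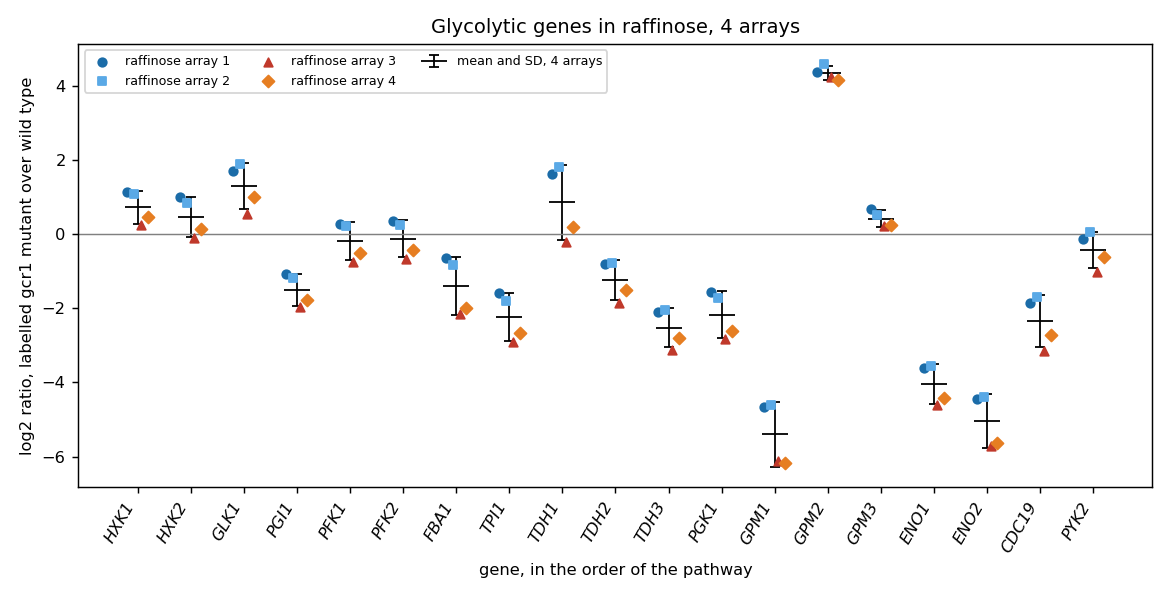
Log2 ratio of the labelled gcr1 mutant over wild type (y axis) for 19 glycolysis genes in pathway order (x axis), with 1 point for each of the 4 raffinose arrays and the mean with its SD. GPM1, ENO2 and ENO1 lie between -6.17 and -3.56, GPM2 lies between 4.16 and 4.58, and both phosphofructokinase genes straddle 0.

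No regulator of the glycolytic genes was called lower in the main fit. Of 6 regulators, 3 rose (50%), GCR1 itself among them, and 0 fell, beside 22.4% and 14.3% of all genes. TYE7, a helix-loop-helix activator of glycolysis, rose in the labelled mutant, at 2.38, 1.88, 1.56 and 1.28 on arrays 1 to 4 (mean 1.77 ± 0.47; limma, adjusted p = 7.78e-06). GCR2, the partner that lends Gcr1 its activation function, averaged 0.48 ± 0.32 (adjusted p = 0.0093) and lost its call without array 1. RAP1 stood at -0.37 ± 0.30, ABF1 at -0.37 ± 0.55 and REB1 at -0.22 ± 0.22; none of these passed the test, but all 3 were called lower with the replicate block.

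Downstream of pyruvate the genes split by isozyme. Of 16 fermentation and acetate genes 7 rose (43.8%) and 2 fell (12.5%), with a median of 0.440. ADH1, the main fermentative alcohol dehydrogenase, read -1.26, -1.49, -2.63 and -2.43 (mean -1.95 ± 0.68; limma, adjusted p = 0.00106). ADH5, a minor isozyme, read 3.50, 3.45, 2.65 and 2.91 (mean 3.13 ± 0.41, adjusted p = 7.69e-08), and ADH4 averaged 1.60 ± 0.38. The glucose-repressed ADH2 stood at 0.23 ± 0.48 and mitochondrial ADH3 at 0.59 ± 0.66, neither called, though ADH3 was called higher with the replicate block. ACS1, the acetyl-CoA synthetase of cells short of glucose, read 2.45, 2.47, 1.83 and 2.05 (mean 2.20 ± 0.31, adjusted p = 1.15e-07), whereas ACS2 at 0.44 ± 0.52 was called higher with the block.

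Among aldehyde dehydrogenase genes, the stress-induced ALD3 (1.52 ± 0.39) and ALD2 (0.95 ± 0.56) rose and mitochondrial ALD5 fell (-1.63 ± 0.58), all beyond the array spread by limma (adjusted p = 4.21e-05, 0.0058 and 0.000276). ALD4 at 0.60 ± 0.53 and SFA1 at 0.44 ± 0.39 passed the test but were slightly below 0 on array 3, at -0.094 and -0.09, and lost their calls without array 1, 2 or 4. Of the 7 fermentation and acetate genes that rose, 5 had the same sign on all 4 arrays. ALD6, the cytosolic isozyme, stood at -0.49 ± 0.58 and was called lower with the block. The pyruvate decarboxylase genes, which open the fermentative branch, did not pass the test: PDC1 read 0.29, 0.65, -1.03 and -0.43, PDC5 averaged -0.16 ± 0.54 and PDC6 -0.01 ± 1.02. The sign of each differed between the array pairs.

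The enzyme that opens raffinose itself was lower in the labelled mutant. The invertase gene SUC2 read -1.19, -1.14, -2.17 and -1.86 on arrays 1 to 4 (mean -1.59 ± 0.51, a 3.01-fold lower level; limma, adjusted p = 0.000164). Of 12 sucrose and maltose genes 4 fell (33.3%) and 4 rose (33.3%), beside 14.3% and 22.4% of all genes, with a median of 0.207. The 4 that fell were SUC2, the maltase genes MAL12 (-1.95 ± 0.21) and MAL32 (-1.74 ± 0.20), whose probes may not separate them, and the isomaltase gene IMA5 (-1.37 ± 0.30). All 4 lay below 0 on every array.

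Hexose transporters and their regulators moved in both directions. Of 24 such genes 5 rose (20.8%) and 3 fell (12.5%), near the shares over all genes; with the replicate block 8 rose and 10 fell, and without array 2, 3 rose. The high-affinity transporter gene HXT2 read -1.36, -1.32, -2.42 and -2.02 (mean -1.78 ± 0.54; limma, adjusted p = 0.000111), and HXT1, a low-affinity transporter, averaged -0.91 ± 0.45. HXT3, another low-affinity transporter, read 1.94, 1.65, 1.22 and 1.26 (mean 1.51 ± 0.34, adjusted p = 1.74e-05). The glucose-induced repressor gene MIG2 averaged 1.22 ± 0.16. Of 9 galactose utilisation genes, PGM2, a phosphoglucomutase, rose (1.35 ± 0.43), its isozyme gene PGM1 fell (-0.91 ± 0.40), and GAL7 (0.67 ± 0.47, adjusted p = 0.0402) was called but not without array 3 or 4. The shares in that list, 22.2% higher and 11.1% lower, were also near those of all genes, 22.4% and 14.3%.

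Branches off glycolysis held genes called in both directions. Of 13 pentose phosphate genes 7 rose (53.8%) and 3 fell (23.1%), with a median of 0.690; without array 3 or 4 none was called lower. The transketolase isozyme gene TKL2 read 1.20, 1.43, 2.15 and 2.15 on arrays 1 to 4 (mean 1.74 ± 0.49), higher on arrays 3 and 4 than on arrays 1 and 2. Transaldolase (TAL1, 1.43 ± 0.48), the 6-phosphogluconate dehydrogenase gene GND1 (1.36 ± 0.57) and SOL4, a 6-phosphogluconolactonase (1.51 ± 0.49), rose as well; limma gave the 4 genes adjusted p = 3.84e-05 to 0.00178. Of 11 glycerol genes 6 rose (54.5%) and 1 fell (9.09%), the lower call being lost without array 1, 3 or 4. The glycerol dehydrogenase gene GCY1 read 4.46, 4.29, 3.32 and 3.37 (mean 3.86 ± 0.60, adjusted p = 1.27e-07). The dihydroxyacetone kinase gene DAK2 (2.07 ± 0.35) and the glycerol-3-phosphatase gene GPP2 (1.69 ± 0.54) followed.

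Mitochondrial carbon metabolism rose, more clearly on arrays 1 and 2. Of 18 tricarboxylic acid cycle genes 11 rose (61.1%) and 0 fell, but 6 rose without array 1 or 2, and the replicate block gave 16 and 1. Averaging arrays 1 with 2 and 3 with 4 left 3 higher. Medians were 1.07 and 1.004 on arrays 1 and 2, and 0.128 and 0.309 on arrays 3 and 4. CIT3, a mitochondrial citrate and methylcitrate synthase, read 3.82, 3.72, 3.61 and 3.65, with almost no difference between arrays (mean 3.70 ± 0.09; limma, adjusted p = 1.95e-09). The main mitochondrial isozyme CIT1 averaged 1.82 ± 0.60 and the peroxisomal CIT2 1.62 ± 0.45. For the respiratory chain and ATP synthase, 22 of 39 genes rose (56.4%) and 0 fell, with 35 higher and 1 lower under the replicate block. With arrays averaged 1 with 2 and 3 with 4, 0 of these genes were called. Their medians were 1.09 and 0.900 on arrays 1 and 2 but 0.144 and 0.290 on arrays 3 and 4. The Rieske protein gene RIP1 averaged 1.23 ± 0.35 and the ATP synthase gene ATP16 1.20 ± 0.53.

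Genes for gluconeogenesis were called in both directions. Of 19 genes for gluconeogenesis, the glyoxylate cycle and lactate use 5 rose and 5 fell (26.3% each), beside 22.4% and 14.3% of all genes. The share that rose was thus near that of all genes. Without array 2, 3 rose, and with the replicate block 9 rose. PCK1, the key enzyme that makes phosphoenolpyruvate for gluconeogenesis, read -1.70, -1.95, -1.79 and -2.003 on arrays 1 to 4 (mean -1.86 ± 0.14; limma, adjusted p = 2.57e-06). The 2-hydroxyglutarate transhydrogenase gene DLD3 (1.88 ± 0.57), the acetate transporter gene ADY2 (1.64 ± 0.16) and the succinate-fumarate carrier gene SFC1 (1.34 ± 0.18) rose, as did ATO2 (2.15 ± 0.27), a close relative of ADY2. Of 24 peroxisome and beta-oxidation genes 11 rose (45.8%) and 3 fell (12.5%). The carnitine acetyltransferase gene CAT2 read 2.99, 2.92, 2.63 and 2.74 (mean 2.82 ± 0.17, adjusted p = 8.57e-09), and CRC1, the mitochondrial carnitine carrier, averaged 1.43 ± 0.12.

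Genes of starved and stressed cells were higher in the labelled mutant. Of 18 stationary phase genes 14 rose (77.8%) and 0 fell (16 and 1 with the replicate block). Their median of 1.14 was 1.34, 1.31, 0.816 and 0.890 on arrays 1 to 4. Averaging arrays 1 with 2 and 3 with 4 left 5 higher. SPG4, needed for survival at high temperature in stationary phase, read 4.43, 4.39, 3.64 and 3.89 (mean 4.09 ± 0.39; limma, adjusted p = 7.76e-07). The vitamin B6 gene SNO1 averaged 2.22 ± 0.39 and MOH1 1.93 ± 0.13. Of 42 environmental stress genes 24 rose (57.1%) and 4 fell (9.52%), or 8 with the replicate block, with a median of 0.733. The same averages of arrays left 13 higher and 1 lower. MSC1 averaged 2.45 ± 0.47 and RTN2 2.35 ± 0.41. The vacuolar aminopeptidase gene APE1 (YKL103C) averaged 3.05 ± 0.39.

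The lowest of the 4 stress genes that fell was HSP30, a plasma membrane heat shock protein that restrains the proton pump. It read -1.998, -2.37, -3.04 and -3.05 on arrays 1 to 4 (mean -2.62 ± 0.52; limma, adjusted p = 7.98e-07). Chaperones did not follow the stress genes: of 22, 9 fell (40.9%) and 0 rose, with 14 lower and 1 higher under the replicate block. Counts were 4 lower and 1 higher without array 3, and 5 lower without array 4. Averaging arrays 1 with 2 and 3 with 4 left 0 called. Chaperone medians were 0.204 and 0.120 on arrays 1 and 2, and -0.957 and -0.702 on arrays 3 and 4, so that the list lay on both sides of 0. Medians over all genes were 0.285, 0.234, -0.188 and -0.05, above those of the chaperones on each array. HSP10 (-1.49 ± 0.64) and the Hsp90 co-chaperone gene AHA1 (-1.04 ± 0.38) were below 0 on every array. Storage carbohydrate genes (trehalose and glycogen) were called higher in 11 of 19 cases (57.9%) and lower in 1 (5.26%), the lower call being lost without array 1, 3 or 4; the glycogenin gene GLG1 read 1.03, 1.11, 1.02 and 1.06.

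**Figure D3:**
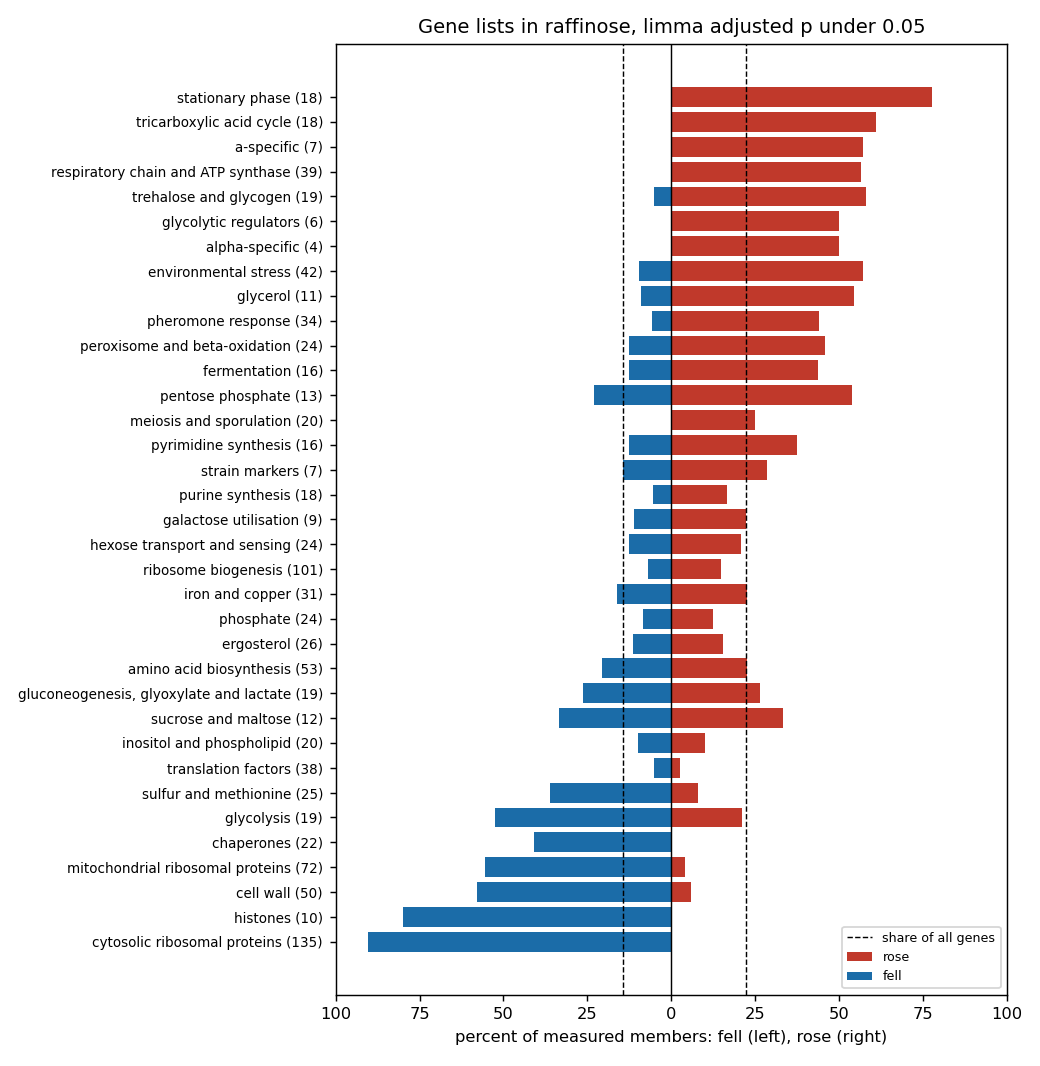
Percent of the measured members of each of 35 gene lists that fell (left of 0) or rose (right of 0) in raffinose by limma at an adjusted p under 0.05, with list sizes in brackets and dashed lines at the shares of all genes (14.3% lower, 22.4% higher). Cytosolic ribosomal proteins (90.4% fell) and stationary phase genes (77.8% rose) stand at the ends.

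The protein synthesis machinery was lower at the level of the ribosome's own parts but not of the factors that build it. Of 135 cytosolic ribosomal protein genes 122 fell (90.4%) and 0 rose, and 130 lay below 0 on all 4 arrays. Without array 4, 81 fell, and with arrays averaged 1 with 2 and 3 with 4, 8 of these genes fell. Their median was -1.02, made up of -0.371 and -0.667 on arrays 1 and 2 and of -1.52 and -1.44 on arrays 3 and 4. RPL14A, a large subunit protein gene, read -1.16, -1.47, -2.03 and -2.03 (mean -1.67 ± 0.44; limma, adjusted p = 3.43e-06), and its close paralog RPL14B averaged -1.59 ± 0.41. Of 72 mitochondrial ribosomal protein genes 40 fell (55.6%), among them RSM26 (-1.18 ± 0.39) and IMG1 (-1.19 ± 0.66), and 3 rose (4.17%). The same averages of arrays left 1 lower and 0 higher.

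Ribosome biogenesis genes gave calls in both directions, at lower shares than all genes (22.4% higher and 14.3% lower). Of 101 such genes 15 rose (14.9%) and 7 fell (6.93%), with a median of 0.070; the replicate block gave 32 and 18. The balance depended on single arrays: 6 rose and 11 fell without array 1, 9 rose without array 2, and 3 and 2 fell without array 3 and array 4. The small subunit processome gene MPP10 averaged 0.74 ± 0.17 and UTP6 0.73 ± 0.20, whereas the box H/ACA particle gene GAR1 averaged -0.97 ± 0.48. Translation factor genes were called in 3 of 38 cases, 1 higher (2.63%) and 2 lower (5.26%), also below the shares of all genes. With the replicate block 21 were called, 6 higher and 15 lower. In the main fit the higher call was lost without array 1 or 2 and both lower calls without array 3 or 4. Their medians, 0.366 and 0.274 on arrays 1 and 2 but -0.685 and -0.523 on arrays 3 and 4, lay on both sides of 0. Of 10 histone genes 8 fell (80%) and 0 rose, with HTA1 at -1.36 ± 0.55 and HTB2 at -1.09 ± 0.40. With arrays averaged 1 with 2 and 3 with 4, 0 histone genes were called.

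**Figure D4:**
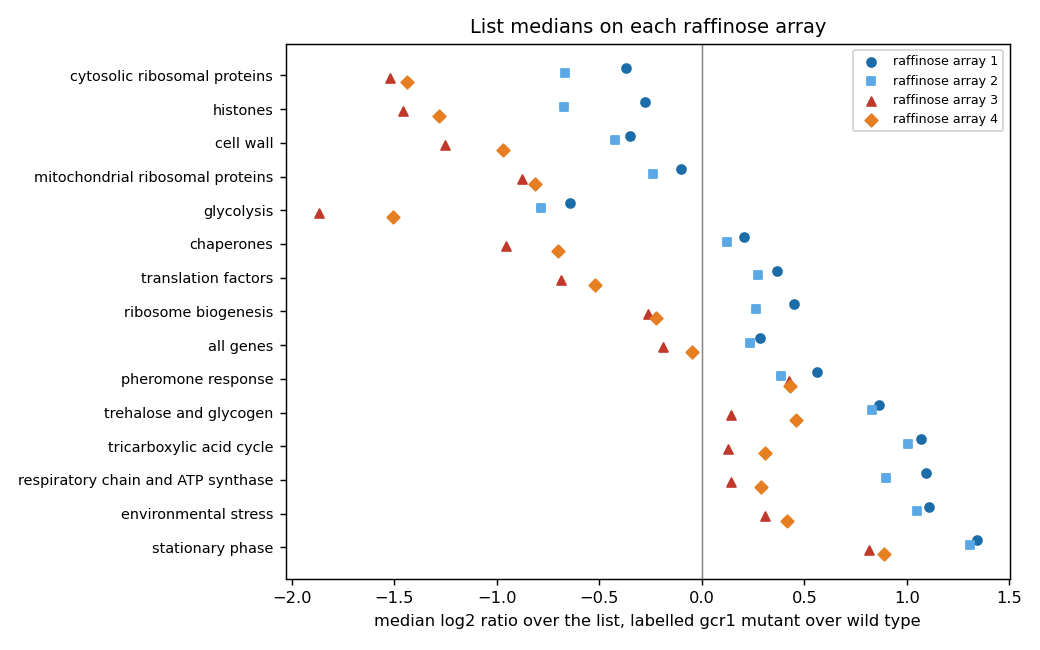
Median log2 ratio of the labelled gcr1 mutant over wild type (x axis) of 14 gene lists and of all genes (y axis), with 1 point for each raffinose array. Medians of cytosolic ribosomal proteins, histones, cell wall genes, mitochondrial ribosomal proteins and glycolysis lie below 0 and those of the 6 lowest rows above 0 on all 4 arrays, while chaperones, translation factors, ribosome biogenesis and all genes change side between the array pairs.

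The cell surface was the other large group with lower ratios. Of 50 cell wall genes 29 fell (58%) and 3 rose (6%), or 5 rose with the replicate block. Their median was -0.740, and 33 lay below 0 on all 4 arrays. Averaging arrays 1 with 2 and 3 with 4 left 5 lower and 0 higher. YPS3, an aspartyl protease anchored at the surface, read -1.71, -1.62, -2.28 and -2.34 on arrays 1 to 4 (mean -1.99 ± 0.38; limma, adjusted p = 6.18e-06). The septation-related genes SUN4 (-1.76 ± 0.72) and SCW11 (-1.64 ± 0.23) and the mannoprotein gene CWP1 (-1.71 ± 0.48) fell with it. NCW2, a wall protein outside the list, read -1.60, -1.64, -2.71 and -2.69 (mean -2.16 ± 0.62, adjusted p = 4.61e-05).

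Phosphate transporters moved apart. PHO89, the sodium-coupled phosphate transporter of alkaline conditions, read -2.74, -2.90, -3.43 and -3.38 on arrays 1 to 4 (mean -3.11 ± 0.35; limma, adjusted p = 1.09e-08). PHO84, the proton-coupled transporter, read 1.54, 1.34, 0.75 and 0.79 (mean 1.10 ± 0.39, adjusted p = 0.000845). PHO80, the cyclin that restrains the phosphate pathway, averaged 0.97 ± 0.21 and SPL2, which acts against low-affinity transport, -0.84 ± 0.40. Those were 4 of the 5 calls among 24 phosphate genes, 3 higher (12.5%) and 2 lower (8.33%), beside 22.4% and 14.3% of all genes. The replicate block gave 10 higher and 4 lower, and 5 were higher without array 3.

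Amino acid and nucleotide synthesis held single genes with large ratios in both directions. Of 53 amino acid genes 12 rose (22.6%) and 11 fell (20.8%), beside 22.4% and 14.3% of all genes. Without array 1 or 2, 7 rose, without array 3 or 4, 6 fell, and the replicate block gave 18 and 18. Named members were BAT2, the cytosolic branched-chain transaminase, at 1.72 ± 0.56 and the lysine gene LYS9 at -1.60 ± 0.63. Of 25 sulfur and methionine genes 9 fell (36%) and 2 rose (8%), or 1 rose without array 1, 2 or 4. SAM1, an S-adenosylmethionine synthetase, read -1.92, -1.88, -2.42 and -2.08 (mean -2.07 ± 0.24; limma, adjusted p = 8.83e-08), and the cystathionine beta-lyase gene STR3 averaged 1.38 ± 0.17. IMD2, an IMP dehydrogenase of guanine nucleotide synthesis, read 3.95, 4.17, 3.43 and 3.85 (mean 3.85 ± 0.31, adjusted p = 2.03e-09), and was followed at a distance by IMD3 (1.07 ± 0.48). The other purine genes gave 2 calls among 16, ADE12 (0.90 ± 0.57) and ADE8 (-0.58 ± 0.45), the second lost without array 3 or 4. Of all 18 purine genes 3 rose (16.7%) and 1 fell (5.56%); the replicate block gave 6 and 6, 5 rose without array 3 and 2 fell without array 1.

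Of 16 pyrimidine genes 6 rose (37.5%) and 2 fell (12.5%), or 5 fell with the replicate block, including the uridine nucleosidase gene URH1 (2.22 ± 0.37), URA10 (1.64 ± 0.25) and URA2 (1.51 ± 0.52). URA3 (YEL021W), a common marker in strain construction, read 2.61, 2.65, 2.51 and 2.78 (mean 2.64 ± 0.11; limma, adjusted p = 1.17e-09). LEU2 averaged 1.14 ± 0.73 and LYS2 -0.66 ± 0.50, the call of LYS2 being lost without array 3 or 4, while HIS3 (-0.35 ± 1.63) and TRP1 (-0.49 ± 1.30) were negative on arrays 1 and 2 and positive on arrays 3 and 4. The other 2 of the 7 marker genes looked up, MET17 (-0.61 ± 0.55) and ADE2 (-0.40 ± 0.41), did not pass the test, and TRP1, MET17 and ADE2 were called lower with the replicate block. Whether any of these is a marker in these strains is not given in the labels. INM1, an inositol monophosphatase gene, read 3.60, 3.54, 2.87 and 3.11 (mean 3.28 ± 0.35, adjusted p = 1.59e-08), whereas of the 20 inositol and phospholipid genes that include it 2 rose and 2 fell (10% each), 4 fell without array 1 or 2, and the replicate block gave 6 and 9.

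Mating genes rose in part. Of 34 pheromone response genes 15 rose (44.1%) and 2 fell (5.88%), or 1 fell when any single array was left out. The replicate block gave 22 and 4, and averaging arrays 1 with 2 and 3 with 4 left 1 higher and 0 lower. PRM1, a membrane protein of cell fusion, read 2.01, 2.00, 2.59 and 2.20 on arrays 1 to 4 (mean 2.20 ± 0.28; limma, adjusted p = 2.57e-07), and PRR2, a kinase tied to the pheromone response, read 2.88, 2.96, 2.95 and 3.04 (mean 2.96 ± 0.07, adjusted p = 1.15e-07). Of 7 genes specific to a cells 4 rose (57.1%) and 0 fell, among them the pheromone gene MFA1 (1.09 ± 0.40) and the alpha-factor receptor gene STE2 (1.04 ± 0.41). Of 4 alpha-specific genes SAG1 (0.51 ± 0.04) and STE3 were called, STE3 with 0.38, 0.18, 1.99 and 2.30 on the 4 arrays and not without array 3 or 4; the replicate block added 1 lower call. Among 20 meiosis and sporulation genes 5 rose (25%, near the 22.4% of all genes) and 0 fell (9 and 1 with the replicate block). On arrays 1 and 2 the list's medians were -0.579 and -0.562, whereas on arrays 3 and 4 they were 1.36 and 0.816.

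Of 26 ergosterol genes 4 rose (15.4%) and 3 fell (11.5%), or 9 and 9 with the replicate block. Of 31 iron and copper genes 7 rose (22.6%) and 5 fell (16.1%), or 14 and 6 with the block. Over all genes 22.4% rose and 14.3% fell, so the iron and copper list lay near the shares of all genes. In that list 3 rose without array 1 or 2, 3 fell without array 2 or 4, and 2 fell without array 3. Single genes outside the lists stood at the extremes. PET122 (YER153C), a translational activator of the mitochondrial COX3 messenger, read -3.77, -3.73, -4.91 and -4.88 (mean -4.32 ± 0.66; limma, adjusted p = 4.72e-06), the third lowest of all genes. MCH5, a riboflavin transporter, read -2.62, -2.23, -2.49 and -2.36 (mean -2.43 ± 0.17, adjusted p = 8.57e-09). On the higher side were PDH1 (3.00 ± 0.39), a probable methylcitrate dehydratase, DIA3 (2.54 ± 0.14), BOP2 (2.48 ± 0.10) and the glutamate and aspartate permease gene DIP5 (2.45 ± 0.33).

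Which of these changes were particular to raffinose was asked by testing the difference between sugars in the same limma fit. Against glucose, 1272 genes had a higher ratio in raffinose (22.6%) and 845 a lower one (15%), or 2030 (36%) and 1462 (25.9%) with the replicate block. Against galactose, 751 were higher in raffinose (13.3%) and 967 lower (17.2%), or 1706 (30.3%) and 1652 (29.3%) with the block. Both contrasts use the same raffinose arrays. Without raffinose array 1 or 2 the count higher than in galactose was 469 and 472, and without galactose array 3 it was 456. With raffinose arrays 3 and 4 turned, 1803 and 902 genes were higher and lower than in glucose, and 1497 and 1006 than in galactose. In that setting the galactose and glucose arrays stayed as deposited. These counts therefore set turned against unturned arrays and cannot show which differences between sugars would outlast turning.

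GPM1, ENO1, ENO2, PET122, SAM1 and URH1 did not pass the test of a difference from either sugar, with adjusted p = 0.121 to 0.998. GPM1 stood at -5.39 ± 0.88 in raffinose, -4.86 ± 0.97 in galactose and -4.96 ± 1.15 in glucose. A p that misses the threshold does not show that the effects were equal. GPM2 differed from glucose by -1.65 (4.34 in raffinose, 5.99 in glucose, on the log2 scale; adjusted p = 1.21e-05) and close to its galactose value (4.36). GCR1 itself was 1.27 higher in raffinose than in glucose (1.67 against 0.40; adjusted p = 0.000282).

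Genes of growth and of respiration differed from glucose in opposite directions. Of all genes, 22.6% were higher and 15% lower in raffinose than in glucose, and 13.3% higher and 17.2% lower than in galactose. The list counts here are from the main fit, without the replicate block, and were not made with arrays averaged in pairs. Averaging arrays 1 with 2 and 3 with 4 left 24 higher and 108 lower than in glucose among all genes. Against galactose it left 28 and 56, so most calls counted by list here depend on how the array pairs are handled. Ribosome biogenesis genes had a higher ratio in raffinose than in glucose in 96 of 101 cases and a lower one in 0, with medians of 0.070 in raffinose and -1.29 in glucose. Cytosolic ribosomal proteins were higher than in glucose in 84 of 135 cases, with medians of -1.02 and -2.10. Respiratory chain genes were lower than in glucose in 32 of 39 cases (medians 0.652 and 1.64) and environmental stress genes in 34 of 42 (medians 0.733 and 1.96). Against galactose, respiratory chain genes were higher in raffinose in 29 of 39 cases (medians 0.652 and -0.360), and so were 39 of 72 mitochondrial ribosomal protein genes (medians -0.484 and -1.26). SUC2 lay between the other sugars, at -1.59 in raffinose, -4.44 in galactose and 0.50 in glucose, and differed from both (adjusted p = 4.77e-05 and 0.000307).

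Several cell surface and membrane genes were lower in raffinose but higher in another sugar. TPO2, a polyamine exporter, read -1.16, -1.15, -2.25 and -2.23 on raffinose arrays 1 to 4 (mean -1.70 ± 0.63), against 5.48 ± 0.57 in galactose and 2.49 ± 0.11 in glucose. The wall protein gene PIR3 averaged -1.47 ± 0.42 in raffinose, against 2.72 ± 0.31 in galactose and 3.49 ± 0.18 in glucose. RTA1, linked to resistance to toxic lipids, averaged -1.66 ± 0.26, against 2.39 ± 0.41 in galactose and 1.40 ± 0.32 in glucose. HSP30 (-2.62 against 2.03 in galactose) and the mannosyltransferase gene KTR2 (-1.75 against 2.79 in galactose) were likewise below 0 in raffinose and above 0 in galactose. For TPO2, PIR3 and RTA1 the largest adjusted p from limma was 2.74e-07 against galactose and 3.14e-06 against glucose.

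Other genes had a higher ratio in raffinose than in galactose or glucose. GCY1 stood at 3.86 ± 0.60 in raffinose and at 3.89 ± 0.14 in glucose, but at -0.17 ± 0.61 in galactose. ADY2 averaged 1.64 ± 0.16 in raffinose and -1.24 ± 0.41 in galactose, and its relative ATO2 2.15 ± 0.27 and -1.21 ± 0.19. PHO84 averaged 1.10 ± 0.39 in raffinose and -2.07 ± 0.55 in galactose. RGI2, a gene of respiratory growth, was at 0.67 ± 0.20 in raffinose, a call lost without any 1 of the 4 arrays, and at -5.05 ± 0.36 in galactose. Against glucose, the cell cycle inhibitor gene FAR1 (0.70 ± 0.35 in raffinose, -1.74 ± 0.23 in glucose), MFA1 (1.09 ± 0.40 and -1.28 ± 0.34) and SST2, which desensitises pheromone signalling (0.55 ± 0.07 and -1.76 ± 0.24), changed sign. PHO89 did so in the other direction, at -3.11 ± 0.35 in raffinose and 0.94 ± 0.04 in glucose.

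**Figure D5:**
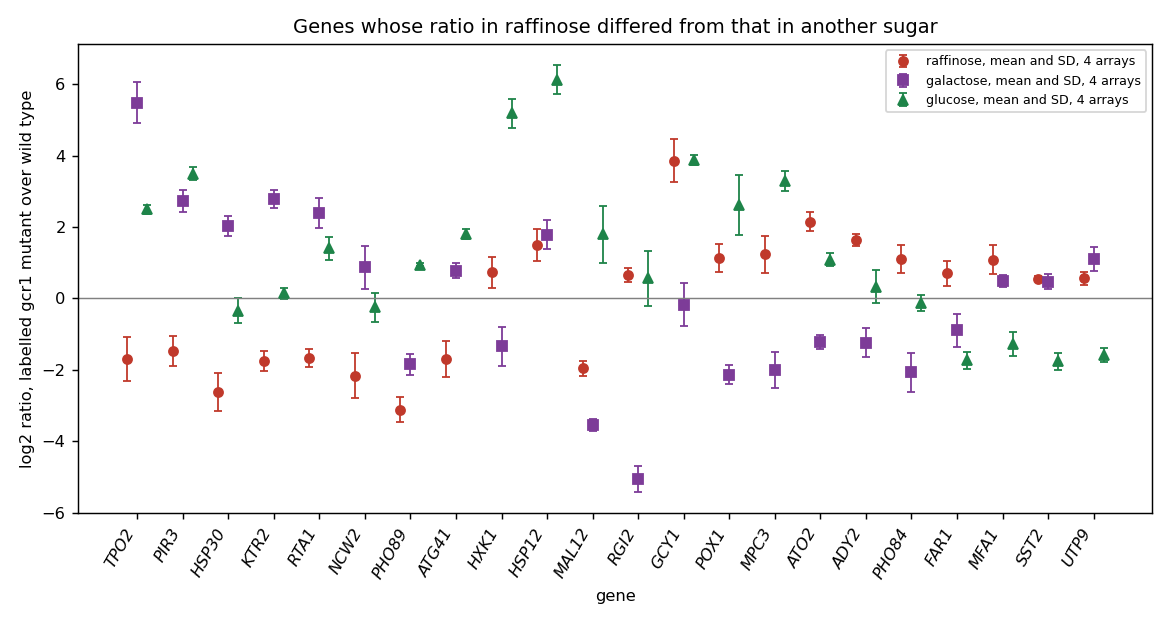
Mean log2 ratio of the labelled gcr1 mutant over wild type with its SD over 4 arrays (y axis) for 22 genes (x axis) in raffinose, galactose and glucose. TPO2, PIR3 and RTA1 lie below 0 in raffinose and above 0 in the other sugars, whereas FAR1, MFA1 and SST2 lie above 0 in raffinose and below 0 in glucose.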

How the data were processed

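The authors deposited log ratios of both channels, 1 per probe and array, which were read here as log2 values from their size. How the authors normalized these log2 values before they were deposited, their log base, and whether dye-swapped arrays were turned, are not given per the labels. Total RNA was labelled with Cy5 and Cy3 with an Agilent linear amplification kit for small RNA amounts (per the labels). Spot brightness was not analysed here, so signal over background is unknown, and precision rests on how many arrays there are.

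Of 10807 probes 9271 had 1 gene in the platform annotation, all matched to assembly R64 for names, and 1536 were unnamed and left out. Probes of a gene were averaged, giving 5636 genes with a value on at least 3 arrays of each sugar; 3610 had several probes, and the means of these differed by over 1 for 1 gene. The 12 arrays were fitted with limma 3.58.1 (lmFit, eBayes) in R 4.3.3, with 1 mean per sugar and a shared spread, with calls made after Benjamini-Hochberg adjustment across every gene (p under 0.05). The fit was tested on simulated data in which arrays varied independently. That test cannot show what shared cultures, dyes or array pairs do to the p-values. No further centring was applied in the main setting.

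After subtracting each sugar's mean, arrays with one number in different sugars correlated at r = 0.522 to 0.893 in all 12 pairs. That met the criterion of over 0.1 for every pair, on which the block was run. The best match was the same number in only 3 of them, so the numbers were not shown to pair single arrays. What same-numbered arrays share includes the difference between array pairs described above, which by itself can meet that criterion. The blocked fit is given beside a result where the call of a named gene differed or the count of a list or of all genes moved by over 1.5 times. It was not counted by list for the contrasts between sugars.

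Genes named are GCR1 and its neighbours; the glycolysis, glycolytic regulator, fermentation and strain marker lists; the 15 highest and 15 lowest called genes with 1 sign on 4 arrays and an unadjusted p under 0.05 in all 3 pairings of arrays; up to 4 called members of each other list with 1 sign on 4 arrays; and, for each contrast between sugars, the 8 genes at either end that were also called in raffinose with 1 sign. The members and lists were chosen with earlier results of these data known. Lists are described by counts and medians, with no test of their own. A gene can stand in several lists. Alternatives tried were the block, centring, other filters and probes, a robust spread, raffinose arrays alone, arrays averaged in pairs, turned signs and each array left out.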

Additional observations from a re-analysis of the deposited data

Results flagged for a closer look

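Listed are the 30 genes with the largest differences between sugars, by limma's test of the difference itself (8 per direction and sugar), among those called in raffinose with 1 sign on 4 arrays; TPO2 and PIR3 appear against both sugars. Differences are raffinose minus the other sugar on the log2 scale. Against glucose the ratio in raffinose was higher for FAR1 (2.44), MFA1 (2.37), SST2 (2.31), CIC1 (2.18), UTP9 (2.15), RPF2 (2.15), SAS3 (2.10) and RSA3 (2.10). CIC1, UTP9, RPF2 and RSA3 act in ribosome assembly. It was lower for PIR3 (-4.96), the small heat shock protein gene HSP12 (-4.62), HXK1 (-4.45), TPO2 (-4.19), PHO89 (-4.05), MAL12 (-3.74), MAL32 (-3.61) and ATG41 (-3.48).

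Against galactose the ratio was higher in raffinose for RGI2 (5.72), GCY1 (4.03), ATO2 (3.36), the acyl-CoA oxidase gene POX1 (3.26), the mitochondrial pyruvate carrier gene MPC3 (3.23), PHO84 (3.18), YIG1 (3.08) and ADY2 (2.88). It was lower for TPO2 (-7.18), HSP30 (-4.65), KTR2 (-4.54), DIA1 (-4.36), the calmodulin-dependent kinase gene CMK2 (-4.26), PIR3 (-4.19), RTA1 (-4.05) and NCW2 (-3.03). The raffinose calls of SAS3 and RGI2 were lost without any 1 of the 4 raffinose arrays, that of CMK2 without array 2, 3 or 4, and those of CIC1, RPF2 and HXK1 without array 1 or 2.

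For STR3 1 array stood apart from the others: 1.63 on array 1 against 1.32, 1.32 and 1.25, a gap of 0.83 of the whole range, and chance alone gives such a gap in about 1 in 20 groups.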

How the results depend on the processing

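Counts of called genes moved with the handling of the array pairs, while no called gene among the 194 named ones changed direction except with turned arrays. In raffinose the main counts, 1265 higher and 806 lower, became 1960 and 1446 with the replicate block, 745 and 488 with raffinose arrays alone, and 1424 lower with centred arrays. Averaging arrays 1 with 2 and 3 with 4 left 124 and 60; averaging 1 with 3 and 2 with 4 gave 2064 and 1596, and 1 with 4 and 2 with 3 gave 2521 and 2037. Turning arrays 3 and 4 gave 0 and 0. Leaving out 1 raffinose array gave 874 to 1352 higher and 509 to 848 lower. Against glucose (1272 and 845) the block gave 2030 and 1462, centring 1418 lower, and the 3 pairings 24 and 108, 2121 and 1592, and 2550 and 2006; leaving out 1 array gave 949 to 1461 higher and 706 to 872 lower. Against galactose (751 and 967) the block gave 1706 and 1652, centring 1480 higher, and the 3 pairings 28 and 56, 1828 and 1733, and 2249 and 2182; leaving out 1 array gave 456 to 980 higher and 765 to 1044 lower. The pairings of unlike arrays and the block remove the difference between array pairs from the spread by construction. Of 173 called named genes, 86 kept their call when arrays 1 and 2, and 3 and 4, were averaged, 158 with raffinose arrays alone, and 24 lost it when some single array was left out. With arrays 3 and 4 turned, 84 of the 173 changed sign. With the block 14 named genes gained a call and 0 lost one. A promoter motif search was not run. Uncalled genes changed sign when 1 array was left out: PFK2 (-0.287 to 0.051), PDC1 (-0.391 to 0.171), PDC5 (-0.346 to 0.072), PDC6 (-0.315 to 0.338) and HIS3 (-0.953 to 0.202).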

Other observations

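CIT3 (3.70 ± 0.09) and PDH1 (3.00 ± 0.39), both among the 15 highest genes in raffinose and named for that, are known from the methylcitrate pathway, which breaks down propionyl units in mitochondria. The methylisocitrate lyase gene ICL2, of the same pathway, read 2.05, 2.15, 1.31 and 1.71 on arrays 1 to 4 (mean 1.81 ± 0.38; limma, adjusted p = 1.84e-06). It was looked up because of the other two and chosen after its values were seen, so the 3 values are a description of these genes and no test of the pathway. The isocitrate lyase gene of the glyoxylate cycle, ICL1, read 0.35, 0.47, -0.30 and -0.10 (mean 0.10 ± 0.37, adjusted p = 0.636).

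Median ratios in raffinose over the 16 nuclear chromosomes ran from -0.019 on chromosome V to 0.156 on chromosome XI, and the shares of genes called higher from 18.5% to 26.6%. The 19 genes of the mitochondrial genome had a median of -0.203. Of these, 1 was called higher (5.26%) and 3 lower (15.8%), beside 22.4% and 14.3% of all genes. COX3, whose messenger Pet122 activates, was among the lower ones, at -0.89 ± 0.63. It was chosen after its values were seen, and a link to PET122 was not tested. Whether the RNA amplification captured transcripts of the mitochondrial genome as it did nuclear ones is not known here, so their ratios may not measure transcript levels.

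A group of 264 genes lay below -0.5 on the mean of raffinose arrays 1 and 2 and above 0.5 on that of arrays 3 and 4, against 20 genes with the opposite pattern. TRP1, HIS3 and 10 of the 20 meiosis and sporulation genes were in it. Of the 264, 180 showed the same pattern by these limits in galactose and 84 in glucose.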
